A study of Homo sapiens with 12 samples.

Results

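The glutathione and thioredoxin systems were described here through 10 genes, chosen by name with earlier results of these data known: GCLC, GCLM, GSS, GSR, TXN, TXNRD1, SRXN1, PRDX1, TXNIP and OSGIN1. OSGIN1 was listed with the others as a growth inhibitor induced by oxidative stress, not as a part of either system. All 10 were found among the 58676 genes measured. The 12 libraries came from RNA of A549, a widely used line grown from a human lung carcinoma. The cells were a control line (labelled Control1) and 2 lines labelled NFE2L1 KO1 and KO2, and each line received either the solvent DMSO, called vehicle below, or bortezomib at 200 nM, in both cases over 4 h. Each of the 6 groups held 2 libraries. No group was without solvent or drug, and all cells were grown in the same serum-containing medium. With 1 control line, a change made by the knockout and any other difference between lines cannot be told apart. Nothing in the sources used here says that the libraries of a group came from separate cultures, so the p-values measure only the spread between these samples, which may be technical.

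Glutathione and thioredoxin are the main thiol carriers that keep a cell's proteins and peroxides reduced. GCLC and GCLM form the enzyme that joins cysteine to glutamate, the rate-limiting step of glutathione synthesis, GSS adds glycine, and GSR returns oxidised glutathione to its reduced form with electrons from NADPH. TXN is the cytosolic thioredoxin, TXNRD1 the selenoprotein that reduces it, PRDX1 a peroxide-removing enzyme that thioredoxin regenerates, and SRXN1 the enzyme that rescues over-oxidised peroxiredoxins. TXNIP binds and inhibits thioredoxin and limits glucose uptake, and OSGIN1 is an oxidative stress induced growth inhibitor. Many of these genes are textbook targets of NRF2, which acts through antioxidant response elements. NFE2L1 is a relative of NRF2 that is known for its role in proteasome gene expression. A549 cells are known for a defect in KEAP1, the protein that marks NRF2 for degradation, and so for high NRF2 activity without treatment. Bortezomib inhibits the proteasome.

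Stretches upstream of GCLM, TXNRD1 and OSGIN1 are shown because these 3 genes carried every call made among the members in the fit with the replicate block by title suffix, described below. They are the 250 bases before a start site in RefSeq (GRCh38.p14), written 5′ to 3′ on the gene's strand. Capitals mark matches to TGACNNNGC on either strand, the core of the antioxidant response element.
GCLM, chr1:93909431-93909680, minus strand: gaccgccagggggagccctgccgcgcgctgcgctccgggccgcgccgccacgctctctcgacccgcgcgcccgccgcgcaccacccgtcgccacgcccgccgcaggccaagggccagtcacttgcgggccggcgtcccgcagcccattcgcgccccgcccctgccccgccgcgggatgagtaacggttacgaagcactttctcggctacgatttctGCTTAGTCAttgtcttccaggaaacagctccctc
TXNRD1, upstream start, chr12:104215529-104215778, plus strand: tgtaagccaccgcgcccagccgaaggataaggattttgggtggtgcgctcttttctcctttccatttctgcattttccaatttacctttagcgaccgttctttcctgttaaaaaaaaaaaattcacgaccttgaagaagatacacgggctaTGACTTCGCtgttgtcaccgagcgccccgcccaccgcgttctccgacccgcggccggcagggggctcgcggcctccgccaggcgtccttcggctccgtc
OSGIN1, chr16:83952990-83953239, plus strand: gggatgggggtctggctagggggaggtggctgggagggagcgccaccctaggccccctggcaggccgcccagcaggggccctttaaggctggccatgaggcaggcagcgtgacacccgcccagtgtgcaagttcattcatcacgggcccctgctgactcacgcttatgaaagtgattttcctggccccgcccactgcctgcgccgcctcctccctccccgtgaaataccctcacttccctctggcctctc
RefSeq windows of 300 bases, from 250 before to 50 after a start, were found for 7 of the 10 genes, with 9 start sites among them. GSS, GSR and PRDX1 had no entry. Matches to TGACNNNGC stood in 2 of the 7 genes. GCLM had 1, starting 34 bases before its start site. TXNRD1 had 2 at its upstream start, at 99 and 8 bases before it, the second of which runs past the printed stretch and is left in lower case. A further match lay 102 bases before its downstream start. This motif was present in 13.4% of the 35116 promoters searched. The ATF4 core TGATGNAA and the paired heat shock units GAANNTTC were in none of the 9 windows, against 3.62% and 6.77% of all promoters. A match is a run of letters and shows no binding.

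The knocked-out gene was examined first as a check of the labels. In vehicle NFE2L1 had 11.6% and 9.82% of the control level in KO1, while the figures for KO2 were 25.6% and 22.3% (R1 against the unnumbered library first, then R2), when libraries were paired by the suffix in their titles. With bortezomib the remaining share was larger, at 24.8% and 18.9% in KO1 and 33.7% and 26.8% in KO2. Libraries held 13211608 to 23819258 assigned reads. The suffix R2 went with a large shift. The share of reads on mitochondrial genes was 12.3% to 19.3% for the 6 R2 libraries and 5.44% to 6.80% for the others, and 44.2% of the 12194 genes tested were lower in R2 than in the partner library in all 6 groups. In the R2 vehicle libraries the mitochondrial share was 12.3% for the control line, 19.3% for KO1 and 14.7% for KO2. Its part in the comparisons of lines was not tested. Among the members 7 of 9 were lower in R2 in all 6 groups, the exceptions being SRXN1 and OSGIN1. Results are therefore given from a model without a replicate term and from one with the suffix as a block, called the block below. R1 occurs only in the knockout lines and the unnumbered libraries only in the control line, so the block ties the knockout lines to the control line mainly through R2. Of the A549 epithelial markers, KRT7, KRT8 and KRT18 were at 111 FPKM or more in all 12 libraries. FPKM counts reads relative to gene length (in kilobases) and to library depth. The leukocyte marker PTPRC and the endothelial marker PECAM1 did not exceed 0.0602 FPKM. The alveolar type 2 markers SFTPC, SFTPB and NKX2-1 together did not exceed 0.154 FPKM, so the surfactant genes of that cell type were not expressed at a measurable level.

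The thioredoxin genes were among the most abundant transcripts of these cells, and 2 members had low counted levels. TXN had a mean of 276 FPKM over the 12 libraries, TXNRD1 249 FPKM and PRDX1 211 FPKM, which placed them at the 99.2 to 99.5 percentile of the genes tested. GSR averaged 88.7 FPKM, GSS 38.3, GCLM 32.6, OSGIN1 28.6 and GCLC 17.5. SRXN1 was low at 1.89 FPKM, the 15.3 percentile. TXNIP averaged 0.138 FPKM, below the minimum mean of 1 FPKM for testing, so 9 of the 10 members were tested. Means of neighbouring genes in this order lay closer than the spread over libraries for TXN, TXNRD1 and PRDX1, whose ranges were 163 to 460, 117 to 431 and 81.0 to 428 FPKM. Several of the genes share their position with another annotated gene (GCLC, TXNRD1, SRXN1, PRDX1 and OSGIN1). Whether the counting used strand is not given in the sources used here, so reads from opposite strands may be mixed for GCLC, TXNRD1 and PRDX1. GCLC, TXNRD1, SRXN1 and OSGIN1 overlap a gene on the same strand, for SRXN1 over 6745 bases with the protein-coding gene AL121758.1. How reads shared by overlapping genes were counted is not given either, so the low level of SRXN1 may be understated. The overlapping genes averaged at most 4.93 FPKM, a level with the same limit. In these bulk libraries fewer cells of a type and less RNA per cell cannot be told apart.

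**Figure D1:**
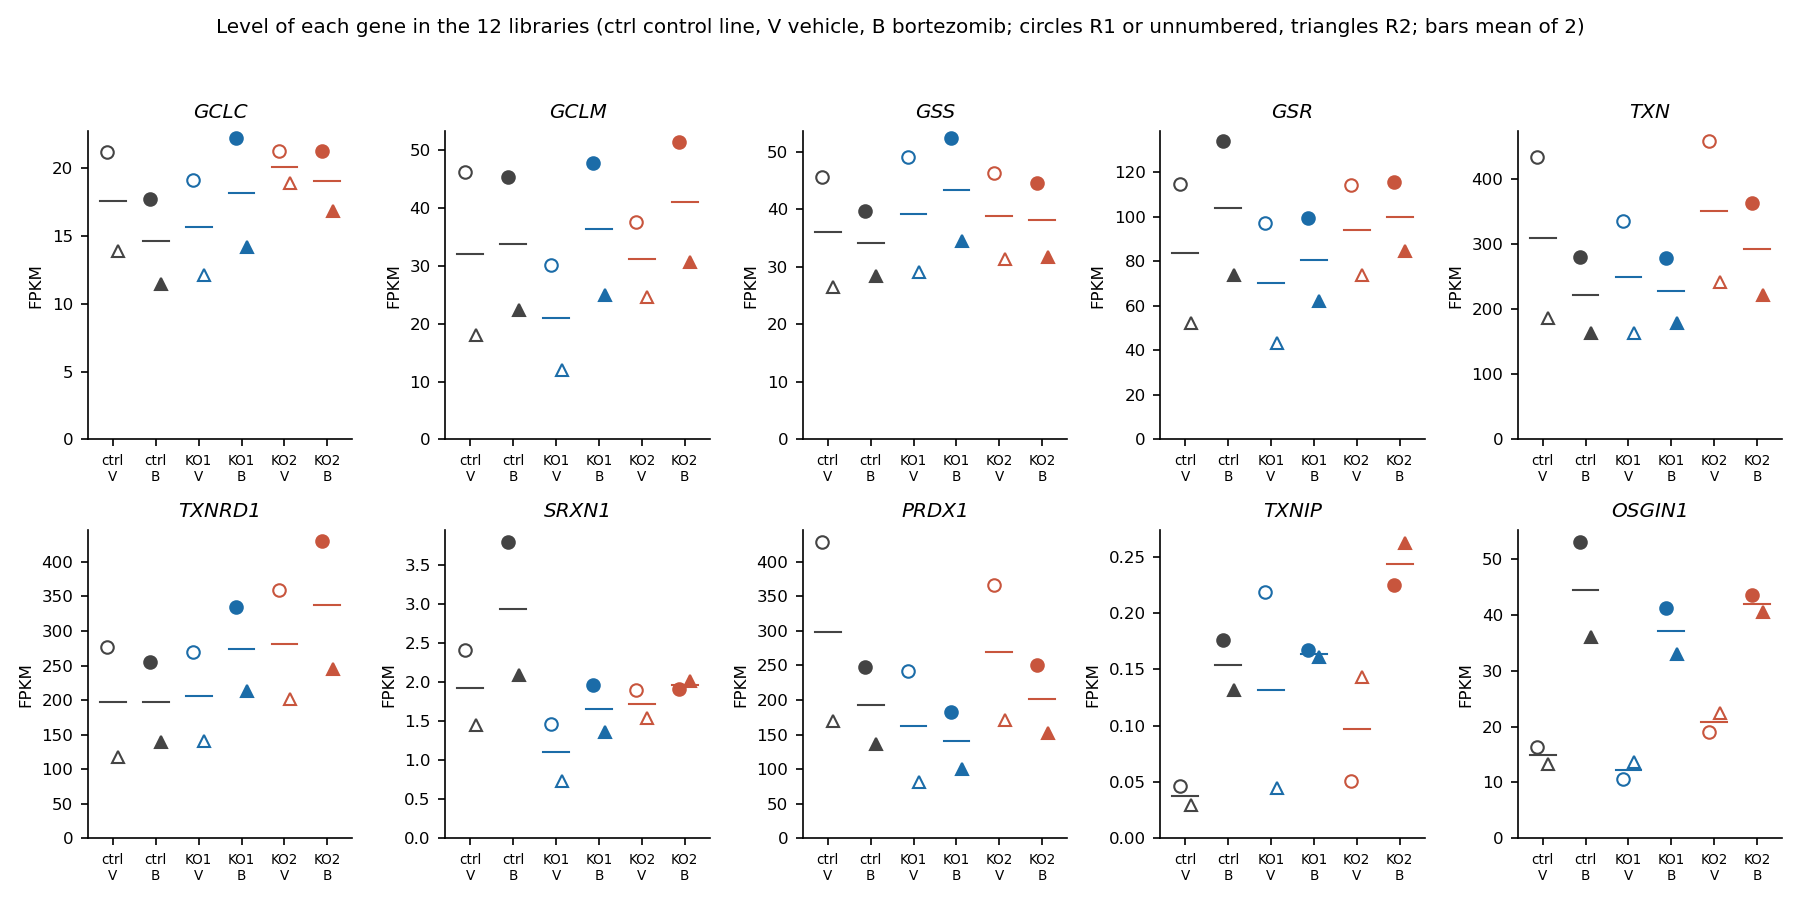
FPKM of each of the 10 genes (vertical axis, from 0, linear, a scale of its own per gene) in the 6 groups (horizontal axis), with open symbols for vehicle, filled symbols for bortezomib, circles for R1 or unnumbered libraries, triangles for R2 and a bar at the mean of 2. OSGIN1 is the panel in which all bortezomib libraries (32.9 to 53.0 FPKM) lie above all vehicle libraries (10.6 to 22.4 FPKM), and in most other panels the triangle is below its circle.

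Among the 9 members tested, on the log2(FPKM + 1) scale, OSGIN1 was the one called in every line with the block. In vehicle its FPKM was 16.3 and 13.4 in the control line, against 10.6 and 13.6 in KO1 and 19.1 and 22.4 in KO2, giving the R1 or unnumbered library first and R2 second. With bortezomib the control line had 53.0 and 36.0 FPKM, KO1 had 41.3 and 32.9, and KO2 had 43.5 and 40.5. The 6 bortezomib libraries lay above the 6 vehicle libraries without overlap, and the highest level with bortezomib was in the unnumbered control library. Paired by suffix, the bortezomib level was 3.24 and 2.69 times the vehicle level for the control line, 3.88 and 2.42 times for KO1, and 2.28 and 1.80 times for KO2, so it was higher in 6 of 6 pairs. The share of all tested genes that separate in this way, or are higher in 6 of 6 pairs, was not counted for OSGIN1 or for the genes below. Log2 fold changes were 1.50 for the control line (SE 0.18 with the block), 1.54 for KO1 and 0.98 for KO2. With the block the limma adjusted p-values were 0.000558, 0.000671 and 0.00501, and OSGIN1 rose in each line by that test. Without the block they were 0.103, 0.136 and 0.363, and no line was called. The rise in KO2 was lost with the block when its R1 vehicle library was left out (0.86, limma adjusted p 0.0722), and it was called in the other 11 of 12 such fits.

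Among the glutathione synthesis genes the one call with bortezomib was for GCLM in KO1. GCLM, the modifier subunit, stood in vehicle at 46.3 and 18.0 FPKM for the control line, 30.1 and 11.9 for KO1, and 37.6 and 24.7 for KO2. With bortezomib the values were 45.4 and 22.4, 47.8 and 25.1, and 51.4 and 30.8 FPKM. The groups overlapped, because R2 was 0.388 to 0.656 of its partner in every group. Within suffixes the bortezomib level was 1.59 and 2.10 times that of vehicle in KO1, 1.37 and 1.25 times in KO2, and 0.980 and 1.24 times in the control line. The log2 fold change in KO1 was 0.83 (95% interval 0.42 to 1.24, limma adjusted p 0.0106 with the block and 0.81 without). It was 0.37 in KO2 and 0.14 in the control line (limma adjusted p 0.161 and 0.6 with the block). The KO1 call was lost without its R2 vehicle library (0.57, limma adjusted p 0.0726), without its R1 bortezomib library (0.81, limma adjusted p 0.0827) and without its R2 bortezomib library (0.85, limma adjusted p 0.0696).

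GCLC, the catalytic partner of GCLM, kept between 11.5 and 22.2 FPKM in all 12 libraries and was not called. Its log2 fold change with bortezomib was -0.25 for the control line, 0.21 for KO1 and -0.08 for KO2 (limma adjusted p 0.236, 0.346 and 0.738 with the block). Its 2 control pairs were both lower with bortezomib (0.837 and 0.823 times) and its 2 KO1 pairs both higher (1.16 and 1.17 times). GSS, which completes the tripeptide, had log2 fold changes of -0.05, 0.16 and -0.02, with 95% intervals under the block from -0.37 to 0.49 over the 3 lines. GSR, the glutathione reductase, was higher with bortezomib in 6 of 6 pairs, by 1.01 to 1.43 times, although its log2 fold changes of 0.36, 0.27 and 0.10 did not pass the threshold (limma adjusted p 0.169, 0.302 and 0.718 with the block).

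In the thioredoxin branch no member was called with bortezomib by limma on log2(FPKM + 1), without or with the block by suffix. TXN was lower with bortezomib in 5 of 6 pairs, by 0.645 to 1.10 times, and PRDX1 likewise in 5 of 6, by 0.577 to 1.23 times. In the control line the log2 fold changes were -0.41 for TXN and -0.55 for PRDX1 (limma adjusted p 0.0943 and 0.0815 with the block). These 2 genes were called lower there when recovered reads were fitted with voom and the block (-0.44, limma adjusted p 0.0377, and -0.58, limma adjusted p 0.0172). TXNRD1 was higher with bortezomib in 5 of 6 pairs, by 0.924 to 1.51 times, and its largest log2 fold change was 0.45 in KO1 (limma adjusted p 0.0568 with the block). SRXN1 was higher in 6 of 6 pairs, by 1.01 to 1.83 times. Its FPKM went from 2.41 and 1.45 to 3.79 and 2.09 in the control line. In KO1 it went from 1.47 and 0.739 to 1.96 and 1.36, and in KO2 from 1.89 and 1.54 to 1.91 and 2.01. The log2 fold changes of SRXN1 were 0.41, 0.35 and 0.13, and they did not pass the threshold (limma adjusted p 0.0949, 0.158 and 0.615 with the block).

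TXNIP, the thioredoxin inhibitor, was close to the detection limit in every library. It held 108 reads in all 12 libraries together. In vehicle there were 4 and 2 reads for the control line, 11 and 3 for KO1, and 4 and 10 for KO2. With bortezomib there were 9 and 9, 8 and 11, and 16 and 21. Bortezomib libraries had more reads than their pair in 5 of 6 pairs, the exception being R1 of KO1. When genes of any level were tested TXNIP was not called in any contrast (limma adjusted p 0.582 or more), and its lowest unadjusted p, for bortezomib in KO2, was 0.0449. These read counts are not corrected for depth. On the log2(FPKM + 1) scale any change at so low a level is small, so that test says little about TXNIP in either direction.

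The members' calls with bortezomib were counted beside those over all genes. Without the block 0 members were called in each line, where limma called 0.467% of all tested genes for the control line, 0.238% for KO1 and 0.32% for KO2, and at an unadjusted p under 0.05 only OSGIN1 passed in each. With the block 1, 2 and 1 members were called, all higher, against 32.4%, 27.7% and 27% of all genes, and with 9 genes such counts are no result about the members as a set. The median log2 fold change of the members was 0.07, 0.27 and 0.10, against -0.01, 0.00 and -0.02 over all genes. Voom without the block called 0 members in these contrasts.

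**Figure D2:**
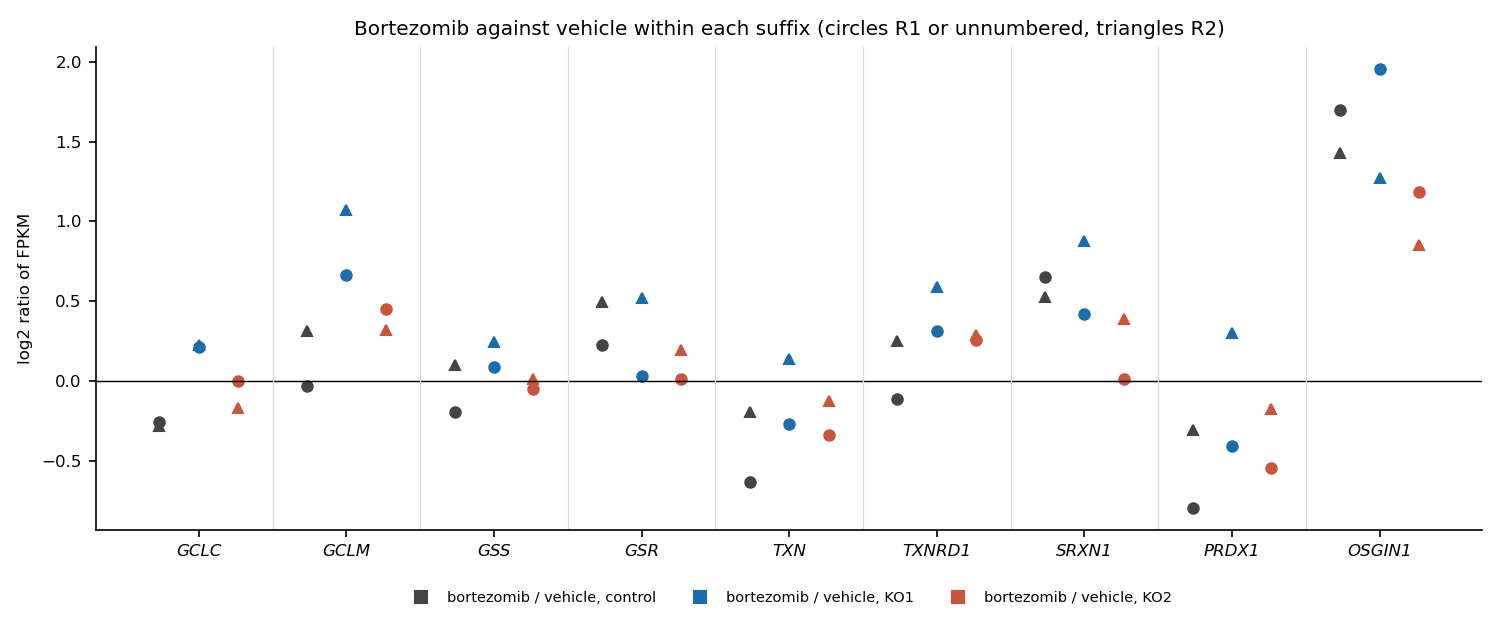
The log2 ratio of FPKM, bortezomib to vehicle (vertical axis), of the 9 tested genes in the control line, KO1 and KO2, with 1 point per pair of libraries sharing a suffix. OSGIN1 lies above 0 in 6 of 6 pairs, GSR and SRXN1 are above 0 in 6 of 6 by less, and the 2 KO1 points of GCLM (1.59 and 2.10 times) are the highest of that gene.

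Genes around the members were taken from lists fixed with earlier results of these data known, and were counted with the block. The share of all genes called with the block (32.4%, 27.7% and 27%) is the background of each count. It held 1958 genes higher and 1994 lower for the control line, 1694 and 1684 for KO1, and 1543 and 1754 for KO2. No list was tested against it. Without the block the genes of these 5 lists called with bortezomib were CHAC1 and MAFF, each in every line, and GPX3 in the control line, and each other bortezomib call named for these lists was lost. Of the glutathione use and supply list (35 tested: transporters, peroxidases, transferases and glutathione-degrading enzymes) 6 were called higher and 7 lower in the control line, against 9 and 4 for KO1 and 6 and 6 for KO2. The list's median log2 fold change was -0.01, 0.07 and 0.05. CHAC1, which cleaves glutathione inside the cell, went from 1.96 and 0.753 FPKM to 9.95 and 11.3 in the control line. The CHAC1 log2 fold changes were 2.35, 2.43 and 2.40, and these were called with and without the block (limma adjusted p 0.0172, 0.0141 and 0.0124 without it). GPX3, the secreted selenium-dependent peroxidase, went from 6.19 and 8.67 to 22.5 and 31.4 FPKM in the control line, a log2 fold change of 1.73 (limma adjusted p 0.000308 with the block and 0.0467 without). In KO1 and KO2 the GPX3 response was 0.67 and 0.86 (limma adjusted p 0.0237 and 0.00881 with the block). The mean response of the knockout lines less that of the control line was -0.96 (limma adjusted p 0.169 with the block), which was not a call. OPLAH, which opens the 5-oxoproline ring in glutathione recycling, rose by 1.54 in the control line, by 1.68 in KO1 and by 1.33 in KO2. ANPEP, a surface aminopeptidase that cuts the dipeptide left from glutathione, fell by 1.25 in the control line (limma adjusted p 0.0128 with the block), and had -0.58 for KO1 and -0.47 for KO2, which were not called.

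Of the thioredoxin partners (26 tested) 3 were called higher and 6 lower in the control line, against 5 and 3 for KO1 and 4 and 3 for KO2. Without the block limma called 0 in each line, and at an unadjusted p under 0.05 there were 0 higher and 1 lower in the control line and 1 and 2 in each knockout line. The medians were -0.23, 0.00 and -0.10. RRM2, the small subunit of ribonucleotide reductase, which draws electrons from thioredoxin and glutaredoxin, went from 28.7 and 20.3 to 9.22 and 10.7 FPKM in the control line. Its log2 fold changes were -1.20, -1.47 and -1.39 (limma adjusted p 0.0049, 0.00254 and 0.0031 with the block and 0.228, 0.193 and 0.207 without). TXNL1, a thioredoxin-like protein found on the proteasome, rose by 1.04 in the control line, by 0.93 in KO1 and by 0.78 in KO2. SELENOW, a small selenoprotein, rose by 1.09 in KO1 and 1.15 in KO2, and its 0.51 in the control line was not called. TXNDC17, a thioredoxin-related protein, fell by 0.90 in the control line, and its -0.12 in KO1 and -0.50 in KO2 were not called. PRDX4, the peroxiredoxin of the endoplasmic reticulum, fell by 0.68 in the control line and by 0.50 in KO2, and its -0.30 in KO1 was not called.

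Of 25 NRF2 targets outside the members, 12 were called lower and 3 higher with bortezomib in the control line with the block, against 5 and 3 for KO1 and 8 and 1 for KO2. Called or not, 17, 13 and 17 of the 25 were lower. Without the block limma called 0 in each line, and at an unadjusted p under 0.05 there was 1, lower, in KO2 and 0 elsewhere. The medians were -0.52, -0.07 and -0.34. AKR1C3, an aldo-keto reductase, went from 254 and 97.9 to 88.6 and 56.6 FPKM in the control line, a log2 fold change of -1.15 (limma adjusted p 0.00548 with the block and 0.471 without), with -0.99 in KO1 and -1.09 in KO2. UGDH, which makes the sugar acid for glucuronidation, had -1.07, -0.76 and -1.06, and ABCC3, an exporter of conjugates, had -1.04, -1.19 and -1.04. ME1, a cytosolic source of NADPH, went the other way, from 37.2 and 15.3 to 99.3 and 41.9 FPKM, a log2 fold change of 1.40 in the control line, with 1.16 in KO1 and 1.18 in KO2. HMOX1, which degrades haem, rose by 0.67 in the control line and by 1.12 in KO1, and its 0.15 in KO2 was not called.

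The list of NRF2 and its regulators, called NRF2 regulators for short, had 11 genes tested. Of these 6 were called higher in the control line and 0 lower, against 6 and 1 for KO1 and 7 and 0 for KO2. The medians were 0.45, 0.67 and 0.61. NRF2 itself (gene NFE2L2) and NFE2L1 are among the 11. NFE2L2 rose by 0.45, 0.67 and 0.55 (limma adjusted p 0.0457, 0.0103 and 0.0242 with the block), and no line was called without the block. The log2 fold change of NFE2L1 with bortezomib was 1.39 in KO1 and 0.76 in KO2, both called with the block, and its 0.45 in the control line was not called. MAFK, a small MAF protein, rose by 0.67 in the control line, by 1.41 in KO1 and by 1.04 in KO2. MAFF, a small MAF protein that pairs with NRF2 and NFE2L1, went from 0.987 and 0.781 to 4.70 and 4.37 FPKM in the control line. Its log2 fold changes were 1.56, 2.06 and 2.39, called with the block and, as the single gene of this list, without it. MAFG, another small MAF protein, rose by 1.11, 0.89 and 0.79, and SQSTM1, an autophagy receptor that binds KEAP1, by 0.83, 0.83 and 0.61. BACH1, a repressor at the same elements, rose by 1.05 in the control line and by 0.72 in KO2, and its 0.35 in KO1 was not called. In the TXNIP family and glucose sensors (9 tested) 4 were called higher and 1 lower in the control line, against 1 and 2 in each knockout line. SLC2A3, a glucose transporter, had 1.72, 0.52 and 1.59. ARRDC3, an arrestin relative of TXNIP, fell by 0.86 in KO1 and by 0.61 in KO2, and its -0.06 in the control line was not called.

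COL1A1, listed as a fibroblast marker, was the 1 of 4 markers of other cell types with a mean above 1 FPKM. The summed level of the 4 markers was 1.60 to 5.41 FPKM over the vehicle libraries and 6.17 to 23.5 FPKM over the bortezomib libraries. COL3A1, the other fibroblast collagen, did not exceed 0.225 FPKM, and PTPRC was at 0 in 10 of the 12 libraries. Their part in the bortezomib results was not tested.

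**Figure D3:**
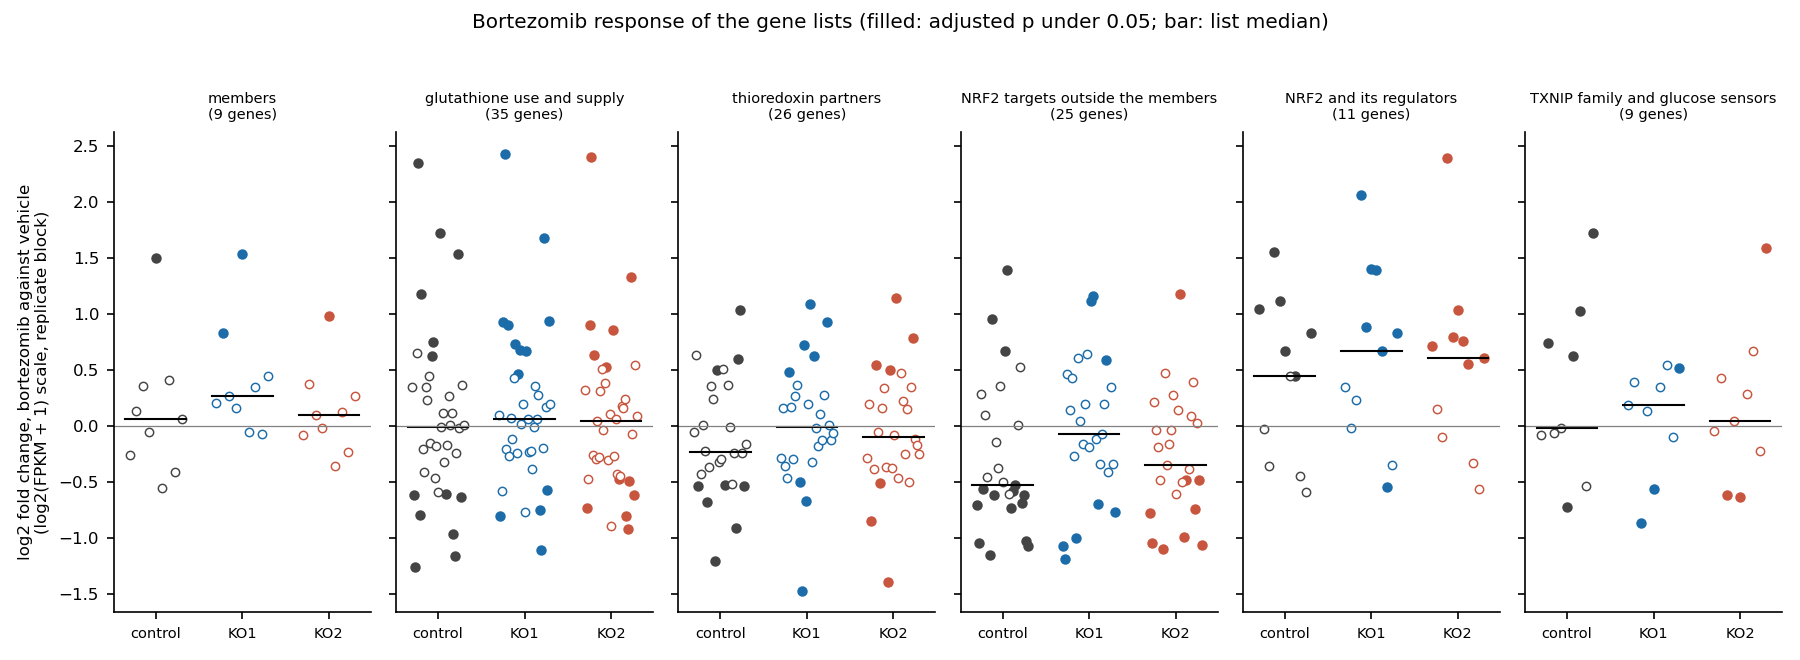
The log2 fold change with bortezomib on the log2(FPKM + 1) scale, from the fit with the block (vertical axis), of each tested gene of the members and the 5 other lists, in the control line, KO1 and KO2. Filled points passed an adjusted p of 0.05 and the bar is the list's median; the bar of the NRF2 targets is at -0.52 in the control line and that of the NRF2 regulators at 0.45.

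The knockout lines were next compared with the control line without the drug. Among the 9 members tested PRDX1 had the largest log2 fold change in KO1 and TXNRD1 the largest in KO2 with the block, and neither passed the threshold in that fit. Both comparisons use the same control libraries. PRDX1 stood at 428 and 169 FPKM in the control line, while KO1 had 242 and 81.0 and KO2 had 367 and 171. Within suffixes KO1 was at 0.566 and 0.478 of the control level, whereas KO2 was at 0.856 and 1.01. The log2 fold change in KO1 was -0.94 without the block (limma adjusted p 1) and -0.92 with it (limma adjusted p 0.0681). It was called lower with unnumbered and R1 libraries sharing a level of the block (-0.94, limma adjusted p 0.0242), with voom and the block (-1.01, limma adjusted p 0.00466) and after rescaling to a common sum with the block (-1.02, limma adjusted p 0.0429). With the block by suffix, leaving out 1 library gave a call in 1 of 12 fits, the one without the R1 vehicle library of KO1. The value ran from -0.50, without the R2 vehicle library of KO1, to -1.29, without the R2 vehicle library of the control line, and the limma adjusted p from 0.0314 to 0.316.

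TXNRD1 was at 277 and 117 FPKM in the control line without the drug, while KO1 had 270 and 141 and KO2 had 360 and 201. KO2 was at 1.30 and 1.72 times the control level, a log2 fold change of 0.70 with the block (limma adjusted p 0.0642). With bortezomib the levels were 256 and 139, 335 and 213, and 431 and 245 FPKM, and KO2 was at 1.69 and 1.76 times the control level. That log2 fold change was 0.90 with the block (95% interval 0.50 to 1.31, limma adjusted p 0.0252) and 0.78 without it (limma adjusted p 1). TXNRD1 was thus called higher in KO2 with bortezomib under the block, but leaving out 1 library kept the call in 2 of 12 fits, those without either vehicle library of KO1. The limma adjusted p ran from 0.0236 to 0.191 over these fits. KO1 with bortezomib was at 1.31 and 1.53 times the control level (0.62 with the block, limma adjusted p 0.0697).

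SRXN1 was below the control line in both pairs of KO1, at 0.609 and 0.511 in vehicle and 0.518 and 0.649 with bortezomib, though its log2 fold changes of -0.32 and -0.39 with the block were not called (limma adjusted p 0.4 and 0.286). GCLM in KO1 was at 0.651 and 0.664 of the control level in vehicle and at 1.05 and 1.12 with bortezomib. Its log2 fold changes were -0.44 and 0.26 with the block (limma adjusted p 0.281 and 0.512). OSGIN1 in KO2 was at 1.17 and 1.68 times the control level in vehicle (0.68 with the block, limma adjusted p 0.115). GCLC in KO2 was at 1.20 and 1.47 times with bortezomib (0.46 with the block, limma adjusted p 0.195). GSS, GSR and TXN had log2 fold changes between -0.20 and 0.49 in the 4 comparisons with the block, and none was called.

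Without the block 0 of 9 members were called in the 4 comparisons of knockout and control, also at an unadjusted p under 0.05, where the background was 0.213% of genes for KO1 and 0.23% for KO2 in vehicle, and 0.107% and 0.0656% with bortezomib. With the block 0, 0, 0 and 1 members were called, in the same order, against 5.95%, 4.91%, 7.54% and 4.81% of all genes. At an unadjusted p under 0.05 there were 1, 2, 1 and 3 members. Over the 9 members the median log2 fold change with the block was -0.12 in KO1 and 0.29 in KO2 in vehicle, against 0.03 and 0.08 over all genes.

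**Figure D4:**
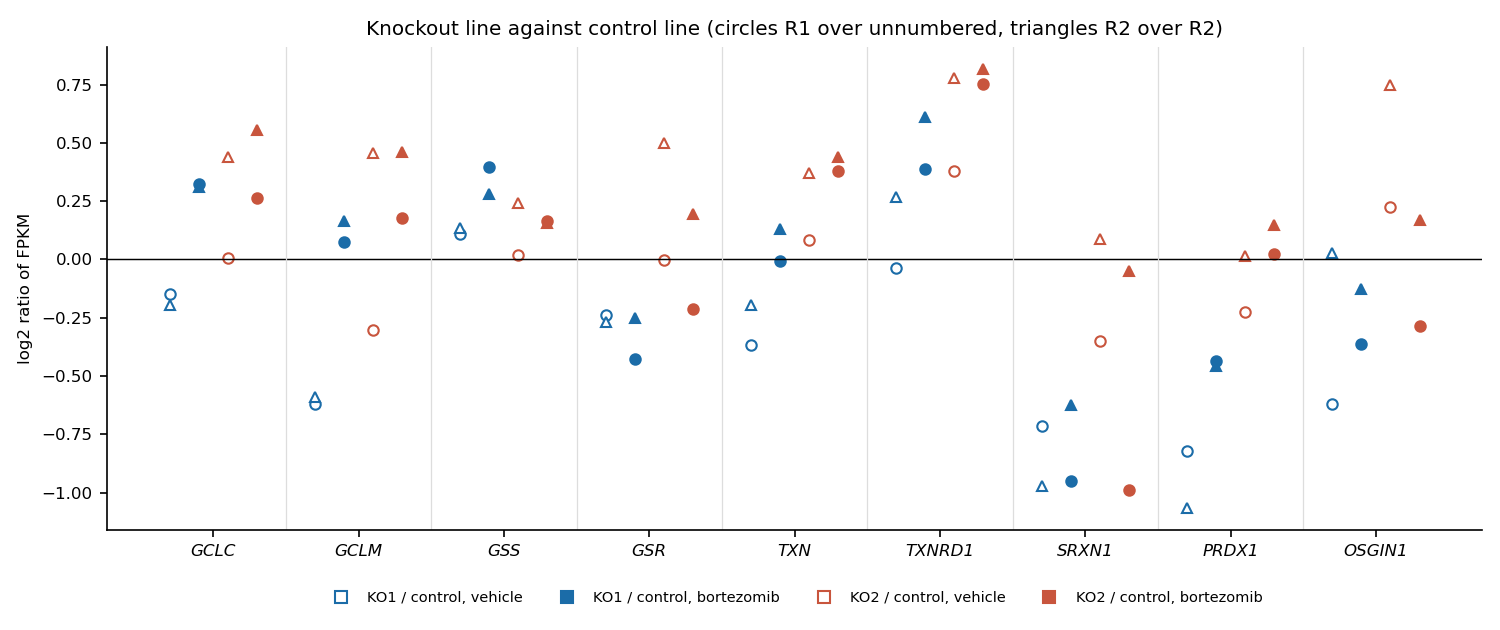
The log2 ratio of FPKM, knockout line to control line (vertical axis), of the 9 tested genes, with open symbols for vehicle, filled for bortezomib, circles for R1 over unnumbered and triangles for R2 over R2. TXNRD1 in KO2 lies above 0 in all 4 pairs (1.30 to 1.76 times), and PRDX1 and SRXN1 in KO1 lie below 0 in all 4.

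The 6 markers listed for A549 epithelial cells (KRT7, KRT8, KRT18, EPCAM, CDH1 and CDH2) moved with the comparison of lines. CDH2 is N-cadherin, commonly a marker of mesenchymal cells, so the 6 do not measure an epithelial state alone. With the block 6 of 6 were higher in each knockout line in vehicle, with medians of 0.85 in both, and 3 were called in each, KRT8 (0.96), CDH1 (1.14) and CDH2 (1.50) in KO1 and KRT8 (1.75), KRT18 (1.59) and EPCAM (1.17) in KO2. Their summed level in vehicle was 526 to 1069 FPKM for the control line, 751 to 1401 for KO1 and 1117 to 1811 for KO2. Without the block limma called 0 of the 6 in either line, and at an unadjusted p under 0.05 there were 1 in KO1 and 3 in KO2, all higher. With bortezomib 6 of 6 were again higher in each with the block, and 3 were called in KO1 and 2 in KO2. Their part in the results on the members and the lists was not tested.

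Among the surrounding lists, GPX3 was lower in both knockout lines. In vehicle it stood at 6.19 and 8.67 FPKM in the control line, whereas KO1 had 1.96 and 1.36 and KO2 had 2.64 and 3.96. These libraries did not overlap those of the control line, and the share of all tested genes that separate in this way was not counted. The log2 fold change with the block was -1.87 in KO1 and -1.18 in KO2 in vehicle (limma adjusted p 0.0017 and 0.014), and -2.92 and -2.05 with bortezomib. Without the block the one called was KO1 with bortezomib (-2.72, limma adjusted p 0.00881). GPX2, an epithelial glutathione peroxidase, was at 30.5 and 26.3 FPKM in the control line, against 36.5 and 49.1 for KO1 and 182 and 190 for KO2. With the block its log2 fold change in KO2 was 2.89 in vehicle and 2.58 with bortezomib (limma adjusted p 0.00363 and 0.00806). The glutathione list (35 tested) had 0 genes called higher and 2 lower in KO1 in vehicle, and 1 higher and 2 lower in KO2. Over all genes 5.95% and 4.91% were called with the block, and the list was not tested against these shares. The remaining genes called on this list were GGT1, which starts extracellular glutathione breakdown, in KO1 (-0.76), and ANPEP in KO2 (-1.55 with the block and -0.87 without). For ANPEP the R1 library of KO2 had 17.6 FPKM against 18.5 in the unnumbered control library, and the R2 libraries had 14.3 against 47.9, so the difference came from the R2 pair.

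Of the 26 thioredoxin partners tested 2 were called in each knockout line in vehicle, all lower, against 5.95% of all genes in KO1 and 4.91% in KO2. So few calls are no result about the list. NXN, nucleoredoxin, was at 8.95 and 4.98 FPKM in the control line, against 3.52 and 1.25 for KO1 and 4.97 and 1.94 for KO2, with log2 fold changes of -1.35 and -0.96 with the block. PRDX4 had -0.70 and -0.69. Among the NRF2 targets 23 of 25 were lower in KO1 in vehicle with a median of -0.48, against 0.03 over all genes. The glutathione list leaned the same way there, with 28 of 35 lower, 7 higher and a median of -0.18. The share of all genes that were lower was not counted. Against 5.95% of all genes called with the block, 4 NRF2 targets were called, all lower. They were AKR1C1 (-1.46), HMOX1 (-1.44), AKR1C3 (-1.15) and BLVRB, a biliverdin reductase (-1.01). HMOX1 had 147 and 47.1 FPKM in the control line against 20.7 and 18.5 in KO1. In KO2 8 of 25 were lower, with a median of 0.11. With the block limma called 0 of them, and at an unadjusted p under 0.05 there were 3 higher and 1 lower. NFE2L3, the third relative of NRF2, was lower in KO2 (-0.95). MLXIPL, a glucose-sensing transcription factor, was higher in both lines (1.36 and 1.35), as was ARRDC2 (0.73 and 0.91), and ARRDC3 was higher in KO2 (0.94). Each of these calls was made with the block, and none of the genes named here for vehicle was called without it. With bortezomib the counts of higher and lower calls in KO1 were 0 and 2 for the glutathione list, 0 and 3 for the thioredoxin partners, 0 and 3 for the NRF2 targets, 1 and 1 for the NRF2 regulators and 0 and 1 for the TXNIP family. In KO2 they were 1 and 2, 0 and 0, 1 and 0, 1 and 2, and 0 and 0. The background was 7.54% of all genes called in KO1 and 4.81% in KO2, and no list was tested against it. AKR1B10, an aldo-keto reductase, was higher in KO2 with bortezomib (1.40), SLC2A3 (-1.56) and RRM2 (-1.14) were lower in KO1, and MAFF was higher in both lines (0.68 and 0.70). Without the block none of these 4 genes was called (limma adjusted p 0.477 or more). NFE2L1 was among the lower regulators in each of the 4 comparisons.

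Whether the response to bortezomib differed between knockout and control was tested as an interaction, the mean response of KO1 and KO2 less that of the control line. No member was called, with the background at 0% of genes in both fits, and limma gave 0 members an unadjusted p under 0.05 without or with the block. Voom with the block called 0 members too, with 1 at an unadjusted p under 0.05. Of the 5 surrounding lists 0 genes were called in the interaction without or with the block. At an unadjusted p under 0.05 with the block there were 1 higher and 2 lower for the glutathione list, 3 and 1 for the thioredoxin partners, 3 and 0 for the NRF2 targets, 2 and 1 for the NRF2 regulators and 0 and 2 for the TXNIP family. The largest interaction was that of GCLM, at 0.47 (95% interval with the block -0.04 to 0.97, limma adjusted p 0.503). OSGIN1 had -0.24 (95% interval -0.74 to 0.26, limma adjusted p 0.759), so a response smaller by up to 0.74 or larger by up to 0.26 in the knockout lines lay within its interval. For the single lines, GCLM in KO1 differed from the control response by 0.69 (limma adjusted p 0.403 with the block). OSGIN1 in KO2 differed by -0.52 (limma adjusted p 0.733 with the block).

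Genes with the most similar pattern were named by Pearson's r of log2(FPKM + 1) over the 12 libraries. The mean of the R2 libraries, or of the R1 and unnumbered libraries together, was first taken off. Differences between R1 and unnumbered libraries therefore remain in r. The libraries share treatment and line, so these values describe likeness only. For OSGIN1 they were CCDC174 (0.975), AKAP8L (0.972) and C16orf72 (0.969). For GCLM they were IDH3A (0.961), UBE2Q2 (0.934) and SPATS2L (0.933). For SRXN1 they were SPRTN (0.967), TRAK2 (0.956) and FARP2 (0.955). TXNIP was below the level for testing and was not compared.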

How the data were processed

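RNA from 12 libraries was analysed. The deposited table holds FPKM, which the authors scaled to reads assigned to genes. Per the submitters' processing notes the tools were CASAVA, STAR 2.5, HTSeq 0.6.1 and DESeq2, with hg19 as build. Of the table's gene IDs 95.3% have the position given in GENCODE release 29 (GRCh38), and no genome coordinate of a gene is printed from the table. Reads were recovered as FPKM times gene length, and 100% were whole within 0.05. Depth was 13211608 to 23819258 reads.

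Differences were tested with limma 3.58.1 (R 4.3.3; eBayes with trend) on log2(FPKM + 1), a scale that understates changes of low genes. It held 1 mean per group over all 12 libraries. A mean of at least 1 FPKM was required for testing (12194 genes), and an adjusted p (Benjamini-Hochberg) under 0.05 was a call. With 2 libraries against 2 an exact permutation test cannot give a two-sided p below 0.333. Replicate suffixes pair the libraries: the difference of R2 from its partner correlated across genes at r 0.696 to 0.890 over 15 pairs of groups (median 0.811; genes are not independent replicates). The block had levels R2, R1 and unnumbered.

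Alternatives were a pseudocount of 0.1, no filter, another level for the unnumbered libraries, a common sum, quantile normalization, voom on recovered reads, and each library left out. Leaving out libraries with the block was added after seeing the data. The model was run on simulated data in which R1 and unnumbered libraries were given no difference from each other. Lines differed there only through changes added to KO1 with bortezomib. The simulation therefore cannot speak to the tie between lines and suffixes in the real libraries. The members and lists were chosen with earlier results of these data known. The genes named in each list were taken from up to 4 per contrast, those with the largest absolute log2 fold change among genes called with the block. Not all of these were named, and MGST2, MLXIPL, ARRDC2 and MLX with bortezomib were among those left out. NFE2L2 with bortezomib, HMOX1, AKR1C3, GPX3, SLC2A3 and other named genes in further contrasts, and values of single genes without a call, were added beside them. Python 3.11.15, numpy 2.4.6 and pandas 2.3.3 were used for the tables. The deposited symbols SEPW1, SEPP1 and C11orf31 were matched by ID to SELENOW, SELENOP and SELENOH. SLC7A11 is on the glutathione and the NRF2 target lists.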

Additional observations from a re-analysis of the deposited data

Results flagged for a closer look

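GCLC, the catalytic subunit of glutamate-cysteine ligase, was singled out because its pairs of libraries moved in opposite directions in different lines. Both control pairs were lower with bortezomib (0.837 and 0.823 times) and both KO1 pairs higher (1.16 and 1.17 times). The KO1 response less the control response was 0.46 on the log2 scale (limma with the replicate block, unadjusted p 0.0636, adjusted p 0.524; adjusted p 1 without the block). In KO2 the R1 pair stood at 21.3 FPKM in both libraries and the R2 pair was lower with bortezomib (0.891 times), and the KO2 response less the KO1 response was -0.29 (limma adjusted p 1 with and without the block). Neither difference passed the threshold.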

How the results depend on the processing

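Each comparison was refitted under 9 other settings with all libraries and with each library left out, without and with the replicate block. The number of members called depended on the block. With the block by suffix, with unnumbered and R1 libraries sharing a level, with voom and the block, and after rescaling to a common sum with the block, bortezomib gave 1, 1, 3 and 1 members for the control line, and in each of these 4 settings 2 for KO1 and 1 for KO2. KO2 with bortezomib gave 1 in each, and KO1 in vehicle gave 0, 1, 1 and 1. A pseudocount of 0.1, no filter, quantile normalization, a common sum and voom, all without the block, gave 0 members in each contrast. With 1 library left out and no block, 0 members were called in each contrast. With 1 library left out under the block, bortezomib gave 1 to 2 members in the control line, 1 to 3 in KO1 and 0 to 1 in KO2. Against the control line, each knockout line in vehicle gave 0 to 1, as did KO2 with bortezomib. Without a block, dropping 1 library sets groups of unequal suffix against each other, and several uncalled fold changes turned sign. Over these fits bortezomib in the control line ran from -0.55 to 0.043 for GCLC, -0.52 to 0.79 for GCLM, -0.21 to 0.92 for GSR, -1.21 to 0.12 for PRDX1 and -1.01 to 0.19 for TXN. TXNRD1 with bortezomib in KO1 ran from -0.015 to 0.91. In vehicle GCLM in KO1 ran from -1.24 to 0.081 and TXNRD1 in KO2 from -0.039 to 1.19. The interaction ran from -0.19 to 1.12 for GCLM and from -0.51 to 0.033 for OSGIN1. OSGIN1 with bortezomib kept its direction in all of them.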
